A study of Mus musculus with 7 samples.

Results

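Respiratory complex I, the NADH:ubiquinone oxidoreductase of the inner mitochondrial membrane, was described here through its nuclear genes in islets of the congenic strain NOD.ALRc8(D8Mit293-D8Mit137) and of NOD-Rag1-/-. The members were the genes whose symbol begins with Ndufa, Ndufb, Ndufc, Ndufs or Ndufv and ends in a number, together with the Ndufaf genes and the similarly named Ndufab1 and Ndufa4l2. They were 45 of the 25793 gene symbols in the annotated array table, of which 38 were named as subunits and 7 as Ndufaf assembly factors. Each gene was read by its brightest probe set. NOD.ALRc8(D8Mit293-D8Mit137) mice, labelled NOD_Idd22, are NOD mice that carry a segment of chromosome (Chr) 8 between these markers from ALR, a strain that resists alloxan-induced diabetes, and their Rag1 is intact. NOD-Rag1-/- mice carry NOD Chr 8 and a knockout of Rag1, lack mature T and B cells and do not develop insulitis. Both strains share the NOD background, but the full name of the NOD-Rag1-/- strain gives a donor other than NOD for the Rag1 knockout. Genes near Rag1 may therefore carry donor alleles in that strain, which was not tested. The 4 congenic pools and 3 NOD-Rag1-/- pools each held hand-picked islets of 2 mice aged 10 to 12 weeks. The strains differed in Rag1 as well as in Chr 8, and effects of these loci cannot be told apart. Expression was measured on Affymetrix Mouse Gene 2.0 ST arrays, and all values are RMA log2 values. A log2 fold change is the congenic mean minus the NOD-Rag1-/- mean.

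Complex I takes electrons from NADH in the mitochondrial matrix, passes them along a chain of iron-sulphur clusters to ubiquinone, and couples this to the pumping of protons. Its matrix arm holds the NADH site and the clusters, and its membrane arm holds the proton channels, which mitochondrial DNA encodes. In beta cells the respiratory chain links glucose oxidation to the ATP that closes potassium channels and triggers insulin release, and complex I is one source of superoxide. Of the 7 subunits that mitochondrial DNA encodes, none was found under its symbol in the annotated table, and they were not analysed here.

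The promoters of nuclear respiratory genes are known for sites of NRF1, of ETS factors such as GABP, and of YY1, so windows from 250 bases before to 50 after each RefSeq start (GRCm38.p6) were searched on both strands for GCGCATGC (NRF1), CCGGAAG (ETS) and AAGATGGCG (YY1). The ends of these motifs can overlap, but no member window held more than 1 kind. Windows were found for 39 of the 45 members (41 windows). Each motif lay in 5 member windows (12.2%), against 2.71% of 32851 windows of all genes for NRF1, 8.86% for ETS and 1.4% for YY1. The NRF1 windows were those of Ndufa6, Ndufa8, Ndufa11, Ndufaf4 and Ndufaf5, the ETS windows those of Ndufb6, Ndufb7, Ndufs3, Ndufs8 and Ndufaf1, and the YY1 windows those of Ndufa9, Ndufc1, Ndufs4, Ndufs6 and Ndufs7. A total of 15 members (36.6% of windows, against 12.1% of all) held at least 1 of them. The YY1 matches all began between 22 and 35 bases after the start. Printed below are the windows of Ndufa6, the only member past the fold threshold of the study, of Ndufa8, whose probe sets disagreed, of Ndufs7, a core subunit with a YY1 match, and of Ndufb7, which lies in the congenic segment. They are reference sequence, not that of NOD or ALR, in lower case with the motif in capitals, and a match is a description of letters only.
Ndufa6 (chr15:82354242-82354541, minus strand, NRF1 at -83): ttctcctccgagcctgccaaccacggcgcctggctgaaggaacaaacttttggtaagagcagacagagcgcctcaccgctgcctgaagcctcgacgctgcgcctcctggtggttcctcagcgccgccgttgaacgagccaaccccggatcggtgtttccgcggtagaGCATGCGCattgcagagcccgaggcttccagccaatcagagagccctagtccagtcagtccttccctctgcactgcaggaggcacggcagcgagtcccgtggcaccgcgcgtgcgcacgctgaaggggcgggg
Ndufa8 (chr2:36049289-36049588, minus strand, NRF1 at -8): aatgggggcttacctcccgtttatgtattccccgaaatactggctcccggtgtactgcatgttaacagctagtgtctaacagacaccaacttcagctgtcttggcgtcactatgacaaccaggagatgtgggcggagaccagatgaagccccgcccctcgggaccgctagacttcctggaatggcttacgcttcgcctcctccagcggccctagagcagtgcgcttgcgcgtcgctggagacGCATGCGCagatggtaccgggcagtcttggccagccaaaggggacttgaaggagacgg
Ndufs7 (chr10:80249199-80249498, plus strand, YY1 at 24): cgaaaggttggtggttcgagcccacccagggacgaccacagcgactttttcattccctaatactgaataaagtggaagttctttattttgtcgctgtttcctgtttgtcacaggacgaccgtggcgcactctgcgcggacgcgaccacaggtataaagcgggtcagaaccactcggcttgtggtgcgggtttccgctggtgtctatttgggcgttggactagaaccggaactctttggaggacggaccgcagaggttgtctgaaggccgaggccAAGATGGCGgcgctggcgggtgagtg
Ndufb7 (chr8:83566508-83566807, plus strand, ETS at -20): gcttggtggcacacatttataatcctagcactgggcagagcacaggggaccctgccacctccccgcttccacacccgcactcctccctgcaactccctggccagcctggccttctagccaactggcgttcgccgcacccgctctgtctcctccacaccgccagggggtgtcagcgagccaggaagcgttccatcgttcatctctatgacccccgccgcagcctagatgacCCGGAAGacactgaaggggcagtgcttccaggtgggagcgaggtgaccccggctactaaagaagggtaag

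The pools differed in several features beside the complex I genes, and not all of these followed the complex I values from pool to pool. By lower quartile there were 2 sets of arrays, at 2.49 to 2.51 in congenic replicate 1 and NOD-Rag1-/- replicates 2 and 3, and at 2.645 to 2.68 in congenic replicates 2 to 4 and NOD-Rag1-/- replicate 1. NOD-Rag1-/- replicate 1 also had the values of a male pool, with Xist at 2.56 against 9.69 to 10.28 in the other 6 pools, and the labels do not give sex. Markers of acinar cells averaged 7.18 to 9.47 in the congenic pools and 4.05 to 6.77 in the NOD-Rag1-/- pools. All 12 had a higher mean in the congenic pools, but Rbpjl and Ptf1a by only 0.12 and 0.004. Endothelial markers (8 of 8 higher), T cell markers (8 of 8) and B cell markers (6 of 6) did not overlap between the strains in their mean level. Markers of beta cells averaged 9.49, 10.34, 10.50 and 10.37 in congenic replicates 1 to 4, and 10.21, 9.73 and 10.15 in NOD-Rag1-/- replicates 1 to 3, and Ins1, Ins2 and Iapp were bright in every pool. In bulk islet RNA, fewer cells of a type and less RNA per cell cannot be told apart, and the part of these features in the results was not tested.

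Most nuclear complex I genes had a slightly lower mean in the congenic islets, and no member passed the test across all genes. Of the 45 members, 39 had a negative log2 fold change, 33 of 38 subunits and 6 of 7 assembly factors. Among all 34351 probe sets 44.9% were negative, and among the 17175 brighter ones 55.4%. (The members' count was 37 after quantile normalization, where 58.0% of all probe sets were negative, and 41 after median centring, where 70.2% were.) The median log2 fold change was -0.16 for the subunits and -0.25 for the assembly factors, against 0.022 for all probe sets. By limma with Benjamini-Hochberg adjustment, 0 members were called at an adjusted p under 0.05 in either direction, where 0.0116% of all probe sets were called lower and 0.146% higher. A total of 2 members, Ndufa6 and Ndufa7, were lower at an unadjusted p under 0.05 and none was higher, where the background was 3.86% lower and 5.62% higher. At the fold threshold of the study, which asks for a log2 fold change beyond 0.5 in either direction at an unadjusted p under 0.05, 1 member (Ndufa6) was lower and none was higher, against 1.78% and 3.81% of all probe sets. The 4 congenic values lay wholly below the 3 NOD-Rag1-/- values in 2 members (Ndufs1 and Ndufv1) and wholly above them in 1 (Ndufaf2), where the background was 2.74% and 4.43%. The counts of members called were thus near the background shares.

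**Figure D1:**
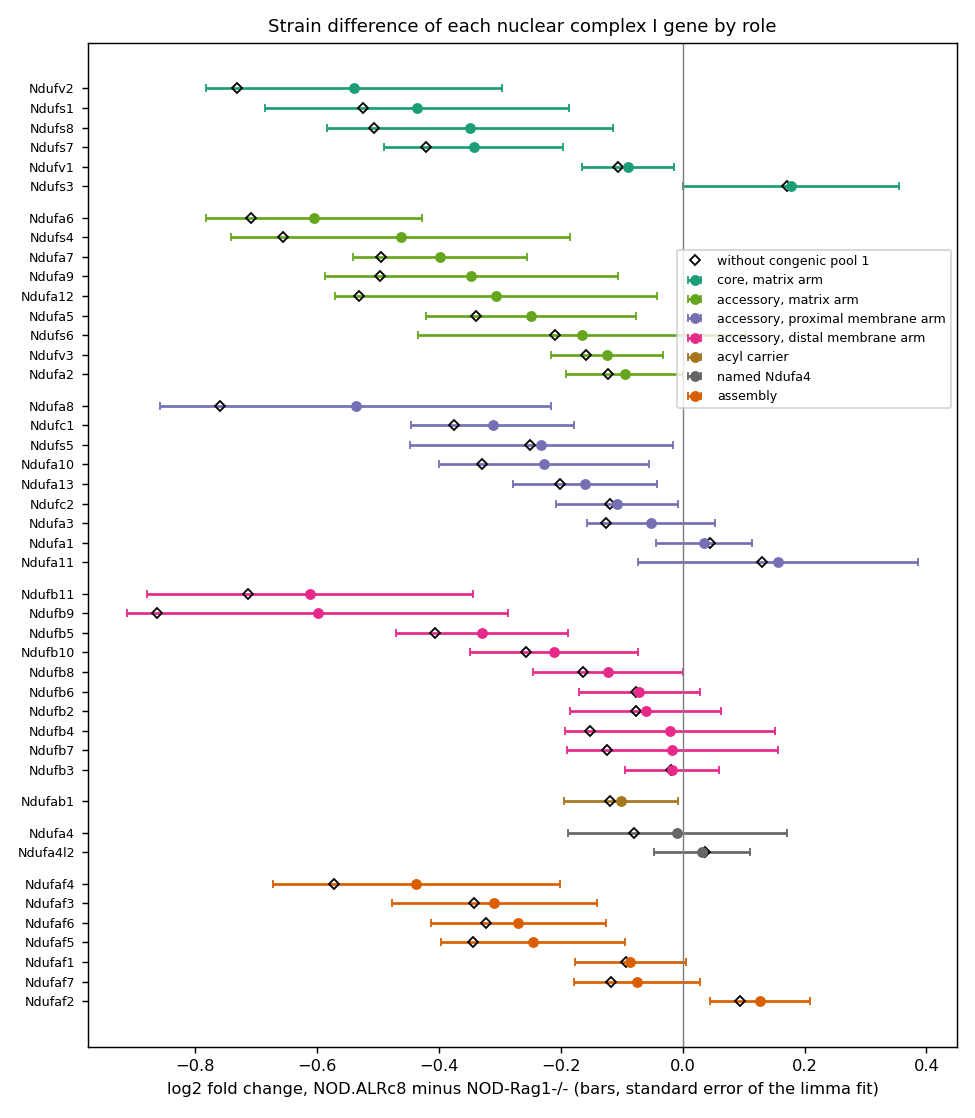
Log2 fold change (congenic minus NOD-Rag1-/-) of 44 of the 45 members, grouped by role. Points are the means of 4 against 3 pools, bars are the standard error of the limma fit and open diamonds are the values without congenic replicate 1. Most points lie left of 0, down to -0.61 for Ndufb11, and Ndufs3 lies to the right at 0.18.

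The direction was carried unevenly by the pools. Of the 45 members, 5, 22, 27 and 27 lay below the whole NOD-Rag1-/- range in congenic replicates 1 to 4, and 6, 3, 2 and 3 lay above it. Among all probe sets the shares below that range were 27.1%, 27.1%, 19.7% and 21.3%, and the shares above it were 16.2%, 28.6%, 31.6% and 34.4%. Congenic replicate 1 was thus inside the NOD-Rag1-/- range in 34 of the 45 members, against 20, 16 and 15 in congenic replicates 2 to 4. The NOD-Rag1-/- pools were themselves not level in these genes, with the lowest subunit mean of the 3 in replicate 1. The mean over the 38 subunits was 7.005, 6.749, 6.777 and 6.618 in congenic replicates 1 to 4, and 6.840, 7.074 and 7.038 in NOD-Rag1-/- replicates 1 to 3. NOD-Rag1-/- replicate 2 was the highest pool in 23 members and congenic replicate 4 the lowest in 16. The 3 highest subunit means belonged to the 3 arrays with the lower quartile near 2.5, which also had the 3 lowest beta cell marker means and the 3 highest duct marker means (6.84 in congenic replicate 1, 6.39 and 6.21 in NOD-Rag1-/- replicates 2 and 3, and 5.70 to 6.07 in the other pools). Congenic replicate 1 was also the highest pool in macrophage markers (7.51, against 5.63 to 6.56 in the others) and fibroblast markers (8.02, against 5.758 to 7.499). Within each array set the congenic means were below every NOD-Rag1-/- mean, but by less. The median log2 fold change of the subunits was -0.038 within the set of 1 congenic and 2 NOD-Rag1-/- pools and -0.13 within the set of 3 congenic pools and 1 NOD-Rag1-/- pool, values without a test. With the array set as a block it was -0.082, and 33 of 45 members were negative beside 53.1% of all probe sets. In that fit 0 members passed the fold threshold, beside 0.984% of all probe sets lower and 3.7% higher.

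**Figure D2:**
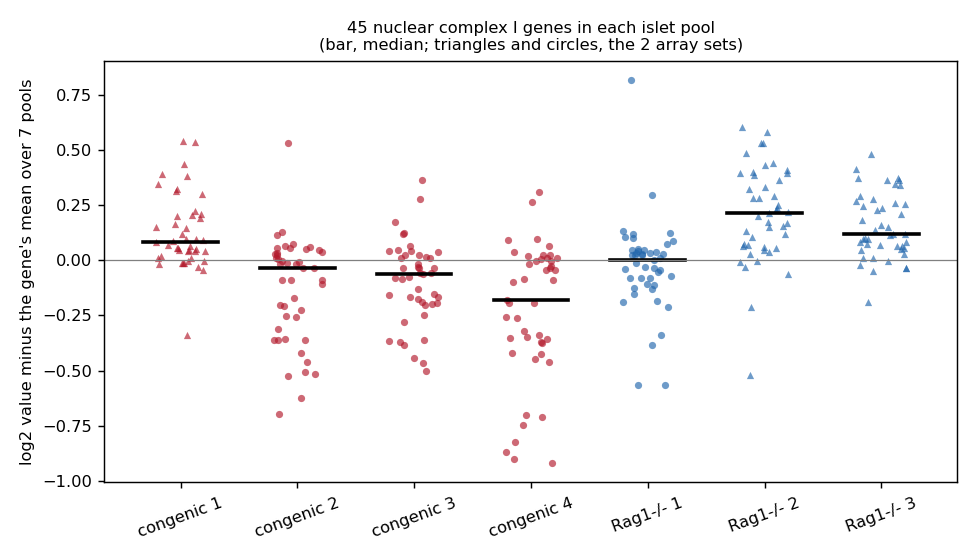
Deviation of each of the 45 members from its own mean over the 7 pools (log2 scale), by pool, with the median as a bar and triangles for the arrays whose lower quartile was 2.49 to 2.51. The medians were 0.082, -0.037, -0.062 and -0.18 in congenic replicates 1 to 4, and 0.001, 0.22 and 0.12 in NOD-Rag1-/- replicates 1 to 3.

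Leaving out congenic replicate 1 changed the counts most among the single pools. Without it, 14 members were lower and 1 higher at an unadjusted p under 0.05, beside 6.83% and 9.0% of all probe sets. Past the fold threshold, 9 members were lower and 1 higher, beside 4.02% and 5.58% of all probe sets. No member passed an adjusted p of 0.05 in that fit either, and the median log2 fold change of all members was -0.21.

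The 7 nuclear core subunits, which carry the flavin and the iron-sulphur clusters of the matrix arm, were negative in 5 of 7 cases, at a median of -0.34 on the log2 scale. Ndufv1 binds NADH and the flavin that first accepts its electrons. Its values were 7.80, 7.81, 7.71 and 7.70 in congenic replicates 1 to 4, and 7.83, 7.83 and 7.88 in NOD-Rag1-/- replicates 1 to 3. The congenic pools were all below the NOD-Rag1-/- pools, by 0.090 in the mean (standard error 0.076, limma adjusted p = 0.714, exact permutation p = 0.0857). Here the smallest exact two-sided p that 4 against 3 pools allow is 0.0286.

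Ndufv2, the partner of Ndufv1 at the tip of the arm, was at 7.84, 6.88, 7.22 and 7.13 in the congenic pools and 7.53, 8.11 and 7.79 in the NOD-Rag1-/- pools. Congenic replicate 1 lay inside the NOD-Rag1-/- range and the other 3 congenic pools below it. The log2 fold change was -0.54 (standard error 0.24, limma adjusted p = 0.542) and -0.73 without congenic replicate 1 (adjusted p = 0.137). Ndufs1, the largest subunit, which carries several of the clusters, was at 7.57, 7.49, 7.55 and 6.58 in the congenic pools and 7.62, 7.87 and 7.71 in the NOD-Rag1-/- pools. The groups did not overlap, yet most of the difference of -0.44 (standard error 0.25, limma adjusted p = 0.605) came from congenic replicate 4, without which it was -0.20.

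Ndufs7 and Ndufs8 hold the clusters nearest to ubiquinone. Ndufs7 was at 8.38, 7.94, 8.24 and 8.03 in the congenic pools and 8.26, 8.66 and 8.56 in the NOD-Rag1-/- pools, a log2 fold change of -0.34 (standard error 0.15, limma adjusted p = 0.526). Ndufs8 was at 8.12, 7.79, 7.63 and 7.05 in the congenic pools and 7.87, 8.08 and 8.04 in the NOD-Rag1-/- pools, with a log2 fold change of -0.35 (standard error 0.24, limma adjusted p = 0.651) that was -0.15 without congenic replicate 4. Congenic replicate 1 lay above only the lowest NOD-Rag1-/- pool in Ndufs7, and above every NOD-Rag1-/- pool in Ndufs8.

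Ndufs3, a core subunit without a cluster, lies on Chr 2 (90894634 to 90904827), within 20 Mb of Rag1. It was at 5.37, 5.35, 5.32 and 5.36 in the congenic pools and 4.71, 5.35 and 5.46 in the NOD-Rag1-/- pools. The log2 fold change of 0.18 (standard error 0.18, limma adjusted p = 0.753) rested on NOD-Rag1-/- replicate 1, the male pool, without which it was -0.053.

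**Figure D3:**
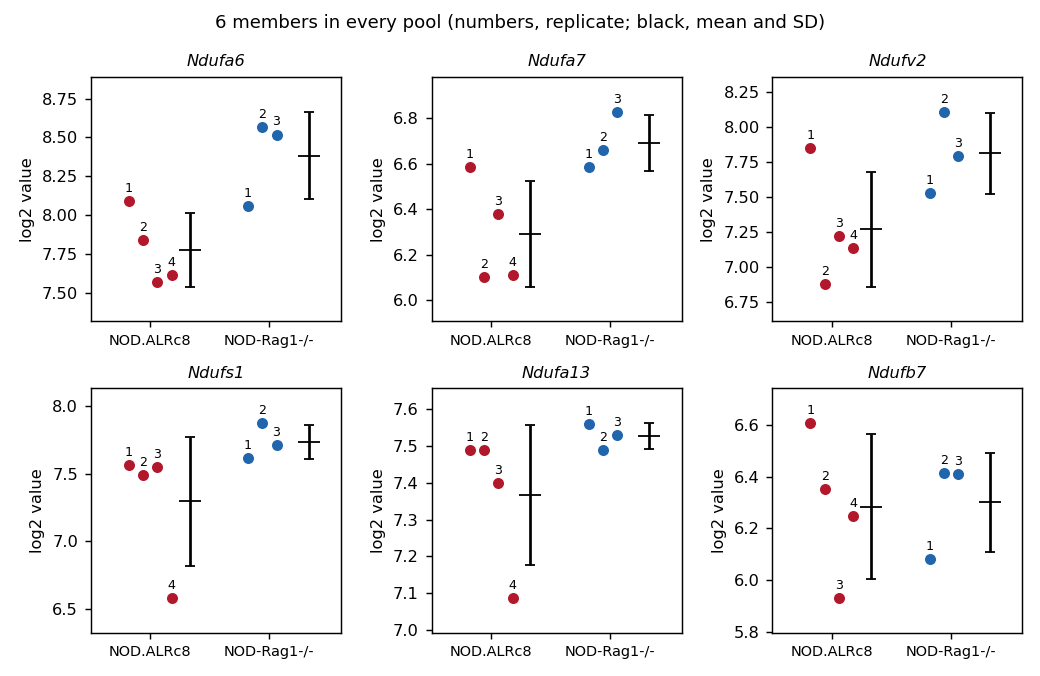
RMA log2 values of 6 members in every pool, with the replicate number beside each point and the mean and SD in black (4 congenic pools left, 3 NOD-Rag1-/- pools right). Ndufa6 averaged 7.78 in the congenic pools and 8.38 in the NOD-Rag1-/- pools.

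The 9 accessory subunits of the matrix arm, which surround the core and stabilise it, all had negative log2 fold changes, with a median of -0.31 (-0.50 without congenic replicate 1). Both members that were lower at an unadjusted p under 0.05 belong here. Ndufa6, a protein of the LYR family that anchors an acyl carrier protein to the matrix arm, lies on Chr 15 (82350139 to 82354291). It was at 8.09, 7.84, 7.57 and 7.61 in the congenic pools and 8.06, 8.57 and 8.52 in the NOD-Rag1-/- pools. Congenic replicate 1 and NOD-Rag1-/- replicate 1 met at about the same value, and the other pools were apart. Ndufa6 averaged 7.78 ± 0.24 in the congenic pools (SD, n = 4) and 8.38 ± 0.28 in the NOD-Rag1-/- pools (SD, n = 3), a ratio of 0.658 on the linear scale (log2 fold change -0.605, standard error 0.18, limma p = 0.0107, adjusted p = 0.368, exact permutation p = 0.0857). The difference within the array sets was -0.46 and -0.39, and no left-out pool turned its sign.

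Ndufa7, a small accessory subunit near the ubiquinone-side clusters, was at 6.58, 6.10, 6.38 and 6.11 in the congenic pools and 6.58, 6.66 and 6.83 in the NOD-Rag1-/- pools. The groups touched at congenic replicate 1 and NOD-Rag1-/- replicate 1, which shared the same value. Its log2 fold change was -0.40 (standard error 0.14, limma p = 0.0266, adjusted p = 0.475, exact permutation p = 0.0857). With the array set as a block it was -0.28, and the unadjusted p was over 0.05. Ndufs4, known as the gene whose loss gives a mouse model of Leigh syndrome, was at 7.34, 6.98, 6.57 and 6.13 in the congenic pools and 6.98, 7.35 and 7.32 in the NOD-Rag1-/- pools. Its log2 fold change was -0.46 (standard error 0.28, limma adjusted p = 0.618). Its range was wider over the 4 congenic pools than over the 3 NOD-Rag1-/- pools, and a difference in spread was not tested. Ndufa9, at the joint of the arms, and Ndufa12, which sits where the assembly factor Ndufaf2 sat before it, had log2 fold changes of -0.35 and -0.31. The remaining members of this group, Ndufa5, Ndufs6, Ndufv3 and Ndufa2, lay between -0.25 and -0.095. Of these, Ndufs6, a zinc-binding subunit, was above the array median on only 2 of 7 arrays.

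The accessory subunits of the membrane arm had medians nearer to 0, a difference between arms that was not tested, yet held some of the lowest single values. The 9 that sit near the matrix arm had a median of -0.16, with 7 negative. The 10 of 11 listed that sit at the far end had a median of -0.097, with all 10 negative (Ndufb1 was not found by symbol). After quantile normalization 30 of 38 subunits were negative in place of 33, and Ndufb7 was among those that turned positive. With the array set block Ndufb4 (0.15), Ndufb7 (0.14) and Ndufb2 (0.019) were positive. These changes of sign are examples and not a full list over all alternatives. The largest differences of the far end were in Ndufb11 and Ndufb9. Ndufb11, which is X-linked, was at 5.05, 4.50, 5.13 and 4.31 in the congenic pools and 5.83, 5.14 and 5.11 in the NOD-Rag1-/- pools. The NOD-Rag1-/- pool with male values was the highest, and the log2 fold change of -0.61 (standard error 0.27, limma adjusted p = 0.534) was -0.38 without it. Ndufb9, another LYR protein that binds the acyl carrier protein, was at 10.50, 9.71, 9.52 and 9.09 in the congenic pools and 10.06, 10.54 and 10.31 in the NOD-Rag1-/- pools. Only congenic replicate 1 reached the NOD-Rag1-/- values, and the log2 fold change was -0.60 (standard error 0.31, limma adjusted p = 0.581) and -0.86 without that pool (adjusted p = 0.132). Without congenic replicate 4, the lowest pool, it was -0.39.

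Ndufa8, a disulphide-bonded subunit on the intermembrane side, had 2 probe sets. The brighter was at 8.27, 7.89, 7.33 and 6.91 in the congenic pools and 7.86, 8.36 and 8.19 in the NOD-Rag1-/- pools (log2 fold change -0.54, standard error 0.32, limma adjusted p = 0.618, and -0.31 without congenic replicate 4). The dimmer ran the other way, at 0.15 (standard error 0.27, limma adjusted p = 0.872), so the direction of Ndufa8 was not the same in both. The brightest probe sets of Ndufb3 and Ndufs5 lie at related sequences outside the RefSeq genes of those names, at Cbx3-ps7 on Chr 1 and at Ndufs5-ps on Chr 16. By the probe set at its own locus Ndufb3 had a log2 fold change of -0.30, in place of -0.017, and Ndufs5 one of -0.095, in place of -0.23, at values of 2.19 to 2.60 over the 7 pools. Neither choice changed a count of called members.

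At the other end, Ndufa11 and Ndufa1 had the highest fold changes of the membrane arm. Ndufa11, which lies close to the partner complexes of the chain, was at 4.19, 3.68, 4.21 and 4.35 in the congenic pools and 4.34, 3.52 and 3.99 in the NOD-Rag1-/- pools (log2 fold change 0.16, standard error 0.23, limma adjusted p = 0.836). Its groups overlapped, and it was above the array median on 5 of 7 arrays. Ndufa1, which is X-linked, was at 7.78, 7.84, 7.81 and 7.79 in the congenic pools and 7.71, 7.73 and 7.87 in the NOD-Rag1-/- pools (log2 fold change 0.035, standard error 0.079, limma adjusted p = 0.898). Unlike in Ndufb11, the NOD-Rag1-/- pool with male values was the lowest of all pools in Ndufa1.

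Of the members, 2 lie in the ALR segment of Chr 8, where the congenic alleles come from ALR by design. Alleles of Ndufs3 and Ndufaf1, within 20 Mb of Rag1, may also differ between the strains, which was not tested. Ndufa13 (69894180 to 69902558), also called GRIM-19, a subunit at the base of the membrane arm, was at 7.49, 7.49, 7.40 and 7.09 in the congenic pools and 7.56, 7.49 and 7.53 in the NOD-Rag1-/- pools. Its log2 fold change was -0.16 (standard error 0.12, limma adjusted p = 0.679), and -0.067 without congenic replicate 4, the lowest pool. Ndufb7 (83566671 to 83571626), a disulphide-bonded subunit at the far end of the arm, was at 6.61, 6.35, 5.93 and 6.25 in the congenic pools and 6.08, 6.41 and 6.41 in the NOD-Rag1-/- pools. All NOD-Rag1-/- pools lay inside the congenic range, with a log2 fold change of -0.017 (standard error 0.17, limma adjusted p = 0.982) whose sign turned after quantile normalization (0.005). A strain difference was not detectable in either gene with these pools. Ndufb2, in the Chr 6 interval that the study linked to alloxan resistance (39592574 to 39603382), was at 5.68, 5.71, 5.67 and 5.46 in the congenic pools and 5.47, 5.72 and 5.89 in the NOD-Rag1-/- pools (log2 fold change -0.061, standard error 0.12, limma adjusted p = 0.884), and the congenic strain is not described as carrying ALR alleles there.

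Ndufab1, the mitochondrial acyl carrier protein that the LYR subunits bind, was at 5.75 in congenic replicates 1, 3 and 4 and in NOD-Rag1-/- replicates 1 and 3, at 5.53 in congenic replicate 2 and at 5.89 in NOD-Rag1-/- replicate 2. Such exact ties across pools came with the deposited values. Its log2 fold change was -0.10 (standard error 0.094, limma adjusted p = 0.740). Ndufa4, which carries a complex I name but is now assigned to complex IV, was at 9.26, 8.96, 8.89 and 9.07 in the congenic pools and 8.66, 9.38 and 9.11 in the NOD-Rag1-/- pools, with a log2 fold change of -0.009 (standard error 0.18, limma adjusted p = 0.991). Its hypoxia-induced relative Ndufa4l2 was at 4.90, 5.02, 4.84 and 4.90 in the congenic pools and 4.86, 4.89 and 4.90 in the NOD-Rag1-/- pools, with a log2 fold change of 0.032 (standard error 0.079, limma adjusted p = 0.909). Ndufa4 moved with the choice of pools and fit, to -0.28 without both first pools and 0.17 with the array set block. Of the 36 subunits without these genes, 32 were negative, with a median of -0.19.

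The Ndufaf genes encode proteins that build the complex and are absent from the finished enzyme. Their mean was 5.98, 5.70, 5.78 and 5.77 in the congenic pools and 5.88, 6.13 and 5.97 in the NOD-Rag1-/- pools. Ndufaf4 and Ndufaf3, which act together on the ubiquinone-side module, had log2 fold changes of -0.44 and -0.31, Ndufaf6 one of -0.27 and Ndufaf5, a modifier of Ndufs7, one of -0.25. Ndufaf7, a methyltransferase, was at -0.075. None of these had an unadjusted p under 0.05. Ndufaf1 (Chr 2, 119655446 to 119662827), a factor of membrane arm assembly within 20 Mb of Rag1, was at 5.36, 5.36, 5.36 and 5.27 in the congenic pools and 5.27, 5.53 and 5.47 in the NOD-Rag1-/- pools (log2 fold change -0.086, standard error 0.091, limma adjusted p = 0.768). Ndufaf2, a relative of Ndufa12, was the exception. It was at 4.77, 4.64, 4.64 and 4.64 in the congenic pools and 4.47, 4.59 and 4.58 in the NOD-Rag1-/- pools. All congenic pools were above all NOD-Rag1-/- pools, by 0.13 in the mean (standard error 0.082, limma adjusted p = 0.640), with the exact permutation p at its smallest, 0.0286, before any adjustment. The difference was 0.007 after median centring and -0.002 after quantile normalization.

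Genes that work with complex I, and genes of like kind, were set beside these. Of 12 further assembly factors measured, 11 had a negative log2 fold change and none had an unadjusted p under 0.05, with a median of -0.16. Tmem126b, a partner of Ndufaf1, was at -0.25, and Lyrm2, a LYR protein of late assembly, had the lowest value of -0.72 (standard error 0.36, limma adjusted p = 0.575). Ndufaf8, found under an older symbol, was at 0.014. Among 8 regulators of respiratory genes, 6 were negative and 2 of these, Nrf1 and Ppargc1a, had an unadjusted p under 0.05, both lower (3.86% of all probe sets). Nrf1, the transcription factor whose motif was searched above, was at 5.77, 5.63, 5.17 and 5.04 in the congenic pools and 5.77, 6.25 and 5.93 in the NOD-Rag1-/- pools, with its highest congenic pool level with its lowest NOD-Rag1-/- pool (log2 fold change -0.58, standard error 0.21, limma adjusted p = 0.480). Ppargc1a, a coactivator of mitochondrial biogenesis, was dim in every pool, at 2.72 to 3.03 in the congenic pools and 3.03 to 3.46 in the NOD-Rag1-/- pools (log2 fold change -0.32, limma adjusted p = 0.524). Gabpa and Yy1 were at 0.091 and 0.010.

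The lower direction was shared by the other mitochondrial lists. The 38 nuclear genes of complexes II to V had a median of -0.15 with 32 negative, 3 lower at an unadjusted p under 0.05 and none higher. For the mitochondrial ribosome (74 genes) the median was -0.23, with 63 negative, 14 lower at an unadjusted p under 0.05 and none higher. Among all probe sets 3.86% were lower and 5.62% higher at that threshold, and 44.9% were negative. Neither list had a member with an adjusted p under 0.05, and a difference between these lists and complex I was not tested. Congenic replicate 1 and NOD-Rag1-/- replicates 2 and 3 had the 3 highest means in each of these lists, as in the subunits and the Ndufaf factors.

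**Figure D4:**
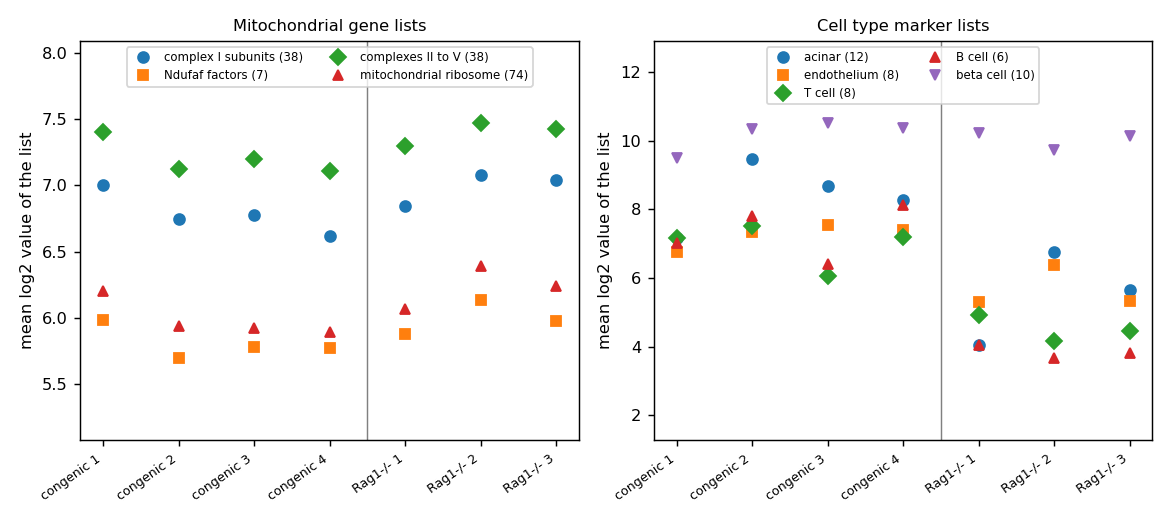
Mean RMA log2 value of each gene list in each pool (4 congenic pools, then 3 NOD-Rag1-/- pools), mitochondrial lists on the left and cell type markers on the right, with the number of genes in brackets. The mitochondrial lists were highest in congenic replicate 1 and NOD-Rag1-/- replicates 2 and 3, where the beta cell markers were lowest, and acinar, T cell and B cell markers were higher in all congenic pools.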

How the data were processed

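Islet RNA of 4 NOD.ALRc8(D8Mit293-D8Mit137) pools and 3 NOD-Rag1-/- pools was compared. The deposited values are log2 expression values, made by the authors with RMA (background correction, quantile normalization, summary by probe set), whose version is not given in the sources used here. The authors' deposited comparison table holds probe set annotation and their own fold changes and p-values, of which only the annotation was used. The 34351 annotated probe sets were tested, and 121 without annotation were left out. Differences between strains were fitted by lmFit and eBayes of limma 3.58.1 (R 4.3.3) without a block, with Benjamini-Hochberg adjustment across every tested probe set. Calls used an adjusted p of 0.05, or the threshold of the study, a log2 fold change beyond 0.5 in either direction at an unadjusted p under 0.05. For single members, exact two-sided permutation p-values came from the 35 arrangements of the pools. The fit was tested on simulated data. Nothing in the labels gives separate litters, so p-values measure the spread between these pools.

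Members and lists were chosen with earlier results of these data known. The members named with values are those in the Chr 8 segment, the Chr 6 interval or within 20 Mb of Rag1, the core subunits, the 5 highest and 5 lowest log2 fold changes, those with an unadjusted p under 0.05 or with groups that do not overlap at a log2 fold change beyond 0.3, and Ndufa4, Ndufa4l2 and Ndufab1. Other members and genes outside the rule (such as Ndufs4, Nrf1 and Lyrm2) were named after their values were seen. A single member is kept in the counts and medians and is otherwise not reported here. Interval bounds are those of the study in NCBI build 37, set on GRCm38 positions without conversion. Promoter sequences are from RefSeq (GRCm38.p6). Alternatives were another normalization or centring, a filter on dim probe sets, other fits, other probe sets of a gene, blocks and left-out pools. Leaving out both first pools, and reading Ndufb3 and Ndufs5 at their own loci, were added after seeing the data. Arrays give no counts, and their number limits the precision.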

Additional observations from a re-analysis of the deposited data

Results flagged for a closer look

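In 8 of the 45 members a single congenic pool lay far from the other 3, by a gap over the whole range above Dixon's critical value for 4 pools, a share of 17.8%. Chance flags about 1 in 20 genes where values have no ties, but 16.6% of all 34351 probe sets were over it in these deposited values, so the members' share was near the background. The gap was 0.920 of the range in Ndufs1, where congenic replicate 4 was at 6.58 and the other 3 congenic pools at 7.49 to 7.57. It was 0.872 in Ndufb8 and 0.871 in Ndufaf3, where congenic replicate 2 was the lowest, and 0.840 in Ndufc2, where congenic replicate 3 was the lowest. In Ndufab1, Ndufaf1, Ndufaf2 and Ndufb6 the gap was 1.0, because the other 3 congenic pools shared exactly the same deposited value, as in 6.64% of all probe sets. The lone pool was the lowest in Ndufab1 and Ndufaf1 and the highest in Ndufaf2 and Ndufb6. The NOD-Rag1-/- group has 3 pools and was not examined in this way.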

How the results depend on the processing

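No member passed an adjusted p of 0.05 in the fit reported or under any alternative tried. The count past the fold threshold of the study, 1 as reported, was 0 with the array set as a block, 0 with a replicate block, 2 after quantile normalization, 4 after median centring, 5 with array weights, 12 without both first pools, and 1 to 10 when single pools were left out (10 without congenic replicate 1, 2 without congenic replicate 3 or NOD-Rag1-/- replicate 1). Of all probe sets, 0.984% were lower and 3.7% higher past it with the array set block, and 0.611% and 2.73% with the replicate block. These shares were 2.22% and 3.37% after quantile normalization, 3.74% and 3.0% after centring, and 3.75% and 6.61% with array weights. Without both first pools they were 5.17% and 7.75%, and without single pools 0.754% to 4.02% and 2.8% to 5.58%. The count at an unadjusted p under 0.05, 2 as reported, was 1 with the array set block, 0 with a replicate block, 7 after median centring, 8 after quantile normalization, 16 with array weights, 15 without both first pools and 1 to 15 without single pools (15 without congenic replicate 1, 7 without NOD-Rag1-/- replicate 1, 4 without congenic replicate 3 and 1 without any other). At that p, 3.82% of all probe sets were lower and 5.11% higher with the array set block, and 1.11% and 3.31% with the replicate block. These shares were 9.09% and 3.68% after centring, 6.33% and 4.67% after quantile normalization, and 8.49% and 12.8% with array weights. Without both first pools they were 7.7% and 12.4%, and without single pools 1.66% to 6.83% and 3.48% to 9.0%. The number of negative members stayed between 33 and 41, and 35 to 40 without single pools. The median of the subunits was -0.25 to -0.13 and that of the assembly factors -0.32 to -0.14 without single pools, and without both first pools these medians were -0.32 and -0.38. Centring gave a median of all probe sets of -0.098, against 0.022 as reported, and 70.2% of them were then negative. The causes were not tested.

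Pools of the same number did not deviate together (r = -0.38, -0.14 and -0.11 across probe sets). The pools of each such pair lay in opposite array sets, so this check cannot show whether the number pairs them. In the replicate block fit congenic replicate 4 has no partner and adds nothing to the difference.

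Of 22 named members, 14 kept their sign under every alternative. With array weights Ndufa1 was at -0.017 and Ndufs3 at -0.010. After median centring Ndufa1 was at -0.085 and Ndufa4l2 at -0.088. After quantile normalization Ndufa4 was at 0.033, Ndufa4l2 at -0.088, Ndufaf2 at -0.002 and Ndufb7 at 0.005. With the array set block Ndufa4 was at 0.17, Ndufb2 at 0.019 and Ndufb7 at 0.14. Without both first pools Ndufs3 was at -0.060. Without single pools, Ndufa11 ranged from -0.057 (NOD-Rag1-/- replicate 2 left out) to 0.35, Ndufs3 from -0.053 (NOD-Rag1-/- replicate 1) to 0.32, Ndufa4l2 from -0.003 (congenic replicate 2) to 0.055, Ndufb2 from -0.17 to 0.040 (NOD-Rag1-/- replicate 3), Ndufb7 from -0.13 to 0.10 (congenic replicate 3) and Ndufa4 from -0.20 to 0.16 (NOD-Rag1-/- replicate 2).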
